A study of Mus musculus with 20 samples.

Results

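The 10 genes described here encode CC chemokines that activated macrophages secrete: Ccl2, Ccl7, Ccl8 and Ccl12, which attract monocytes, Ccl3, Ccl4, Ccl5 and Ccl9, which attract several kinds of leukocyte, and Ccl17 and Ccl22, the ligands of CCR4. Members were taken as every non-control probe whose gene name in the scanner files was one of these 10, which gave 1 probe per gene and 10 of the 21963 genes represented on the arrays. RNA came from bone marrow derived macrophages of C57BL/6 mice, grown with M-CSF-conditioned medium, and each of 20 arrays with 2 colours set LPS-treated cells (200 ng/mL in serum-free medium) against cells of that genotype left without LPS for as long. By their labels the cells were MyD88-KO (MyD88 -/-), TRIF-KO (TRIF -/-), double-KO (both -/-) or wild-type (WT), with 5 arrays each, 1 at 1, 2, 4, 8 and 16 h. No time point was repeated within a genotype, so the spread of a genotype holds both time and noise, and the labels do not say whether the cells of different times came from separate animals. All p-values therefore measure the spread between these arrays.

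LPS, a component of the outer membrane of Gram-negative bacteria, binds the receptor Tlr4, which signals through 2 adapters. MyD88 leads to rapid activation of NF-kB, and TRIF (gene Ticam1) leads both to a slower activation of NF-kB and, through IRF3, to interferon beta, which acts back on the cell through its own receptor. CC chemokines are small secreted proteins named for a pair of adjacent cysteines. Ccl2, Ccl7 and Ccl12 draw Ccr2-bearing monocytes out of the marrow and into tissue, Ccl3, Ccl4 and Ccl5 draw macrophages, T cells and natural killer cells, and Ccl17 and Ccl22 draw T cells that bear Ccr4.

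Between 52.8% and 69.6% of the 43020 non-control spots exceeded background clearly in a channel, and precision is limited by how many arrays there are. Levels are normalized log2 intensities, which can be compared between samples for 1 probe but not between probes. The probes of Ccl2, Ccl8, Ccl12, Ccl3, Ccl4, Ccl5 and Ccl9 were well above background in a channel on all 20 arrays, that of Ccl7 on 17, that of Ccl17 on 12 and that of Ccl22 on 8. With LPS, 2 of the 10 Ccl2 spots and the Ccl3 spot of WT were saturated at 2 h, the Ccl4 spot of WT at 4 h and the Ccl5 spot of MyD88-KO at 4 and 16 h, so the folds of Ccl3, Ccl4 and Ccl5 on those arrays may be understated. In untreated cells Ticam1 read 10.5 ± 0.19 (SD, n = 5) in MyD88-KO, 10.8 ± 0.28 in arrays labelled TRIF-KO, 7.28 ± 0.04 in double-KO and 10.6 ± 0.19 in WT, so the Ticam1 transcript was low in double-KO and not in arrays labelled TRIF-KO. Myd88 read 14.2 ± 0.17 in MyD88-KO, 14.5 ± 0.48 in arrays labelled TRIF-KO, 14 ± 0.13 in double-KO and 14.4 ± 0.41 in WT, so this probe did not bear out the MyD88 deletion in either genotype that carries it by label. Where the alleles lie relative to these probes is not given in the sources used here, and every genotype below is the label's. Of the macrophage markers 8 of 8 were well above background in untreated cells on all arrays, against 0 of 8 dendritic cell markers. Only Xcr1 of these dendritic cell markers was well above background on no untreated array, and the rest were on some. Of the other lists, 6 of 7 neutrophil, 3 of 6 T cell (Cd3e, Cd4 and Lck), 2 of 5 B cell, 1 of 4 natural killer cell, 1 of 6 fibroblast and 2 of 4 endothelial markers were also well above background on all arrays. The summed log2 level of the 7 neutrophil markers was 16.6 to 17.0 in MyD88-KO, 15.1 to 15.9 in arrays labelled TRIF-KO, 15.2 to 15.9 in double-KO and 15.1 to 15.7 in WT. The Y-linked gene Eif2s3y read 6.59 ± 0.07 in MyD88-KO, 14.2 ± 0.24 in arrays labelled TRIF-KO, 14.2 ± 0.19 in double-KO and 6.50 ± 0.06 in WT, while the labels call the mice gender matched. The part of these other markers, of sex and of cell numbers in the results below was not tested, and fewer responding cells cannot be told apart from less RNA per cell. The arrays lay on 5 slides of 4, scanned on 2 days, and each genotype shared at least 1 slide with another. Double-KO arrays were all scanned on the second day and those of WT and of cells labelled TRIF-KO all on the first, while MyD88-KO arrays fell on both.

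The promoter windows of Ccl8 and Ccl12 are shown because these neighbouring genes had the highest ratios of the members in MyD88-KO at 8 and 16 h, on single arrays. RefSeq (GRCm38.p6) gave a window of 250 bases before to 50 after the start for 6 members, namely Ccl8, Ccl12, Ccl3, Ccl9, Ccl17 and Ccl22. Capitals mark the 5 runs of at least 6 identical bases in a global alignment of the pair, which held 37 bases and began with the shared word GGAAATCA. The Ccl8 window lies at chr11:82114935-82115234 and the Ccl12 window at chr11:82101595-82101894, both on the plus strand.
Ccl8: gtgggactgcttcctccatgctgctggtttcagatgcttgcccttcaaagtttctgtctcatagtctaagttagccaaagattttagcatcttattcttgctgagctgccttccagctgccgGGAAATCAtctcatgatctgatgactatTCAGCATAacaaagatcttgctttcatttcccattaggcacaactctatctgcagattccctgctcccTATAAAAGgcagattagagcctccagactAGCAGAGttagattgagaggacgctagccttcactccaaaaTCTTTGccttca
Ccl12: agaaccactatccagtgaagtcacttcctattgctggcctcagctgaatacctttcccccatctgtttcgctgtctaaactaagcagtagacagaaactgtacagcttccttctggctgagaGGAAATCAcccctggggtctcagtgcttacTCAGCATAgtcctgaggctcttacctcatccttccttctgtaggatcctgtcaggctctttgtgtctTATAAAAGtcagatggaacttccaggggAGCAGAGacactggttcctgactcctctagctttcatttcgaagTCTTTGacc
Identical bases made up 49.3% of the window for Ccl8 and Ccl12, and the other pairs of windows ranged between 34.7% and 41.3%. The third shared run, TATAAAAG, holds a TATA box. An interferon-response element core (GAAA, any 2 bases, GAAA, on both strands) was in none of the 6 windows and in 3.44% of 32851 windows of all genes. The 10-letter NF-kB consensus was found in the window of Ccl9, where the letters GGAAAGCCCC at -35 match it on the minus strand, and in 8.46% of all windows. Ccl9 also held the AP-1 word TGANTCA, found in 7.81% of all windows, and Ccl17 held the STAT word TTCNNNGAA, found in 8.30%. No other member window held a word searched for. A match is a description of letters and not of binding.

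LPS raised most of the chemokines in MyD88-KO cells, in cells labelled TRIF-KO and in WT, and none passed the test in double-KO cells. By the mean log2 ratio of LPS over untreated across the 5 times, 9 of 10 members rose in MyD88-KO (16.8% of all genes tested rose), 7 of 10 in cells labelled TRIF-KO (12.9%), 0 of 10 in double-KO (0.328%) and 9 of 10 in WT (16.7%), at an adjusted p under 0.05 in limma. Their median response was 2.73 in MyD88-KO, 1.49 in cells labelled TRIF-KO, -0.01 in double-KO and 2.12 in WT, while the median of all genes was 0, -0.02, 0 and -0.01 in the same order. In double-KO 0 members were under an unadjusted p of 0.05 either. The member that missed the threshold in MyD88-KO was Ccl17. Those that missed it in cells labelled TRIF-KO were Ccl8, Ccl12 and Ccl22, and in WT it was Ccl8. LPS was in Cy5 on 19 of 20 arrays, and with a term for the dye 5 of 10 members passed in MyD88-KO, 2 in cells labelled TRIF-KO and 3 in WT. With the dye term, all genes passing in either direction fell from 7790 to 844 (3.84%) in MyD88-KO. In cells labelled TRIF-KO they fell from 6381 to 323 (1.47%). Beyond that term the part of the dye was not tested. In double-KO the ratio of each member lay between -0.74 and 0.30 on every array. With the slide as a fixed block, 0 of 10 passed in WT, and 0 of all genes did (0%).

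**Figure D1:**
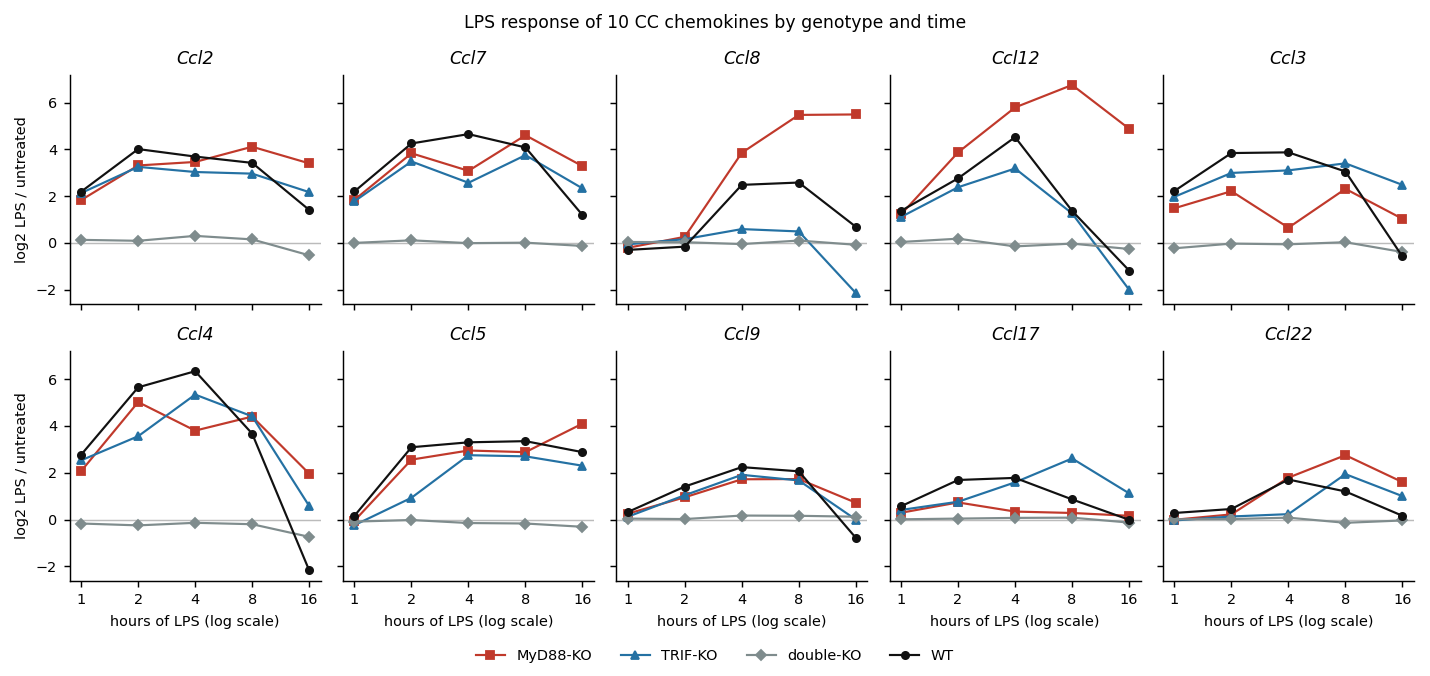
Log2 ratio of LPS-treated over untreated cells (vertical axis) against hours of LPS on a log axis, 1 point per array, for each of the 10 chemokines. Double-KO arrays stay between -0.74 and 0.30 in every panel, while Ccl8 and Ccl12 of MyD88-KO reach 5.49 and 6.75.

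The count of members raised more than 2-fold was read at each time from 1 array per genotype. At 1 h, 5 members were more than 2-fold higher with LPS in MyD88-KO (0.388% of all genes), 5 in cells labelled TRIF-KO (0.669%), 0 in double-KO (0.00455%) and 5 in WT (0.835%). These were Ccl2, Ccl7, Ccl12, Ccl3 and Ccl4 in each of the 3 genotypes. At 4 h the counts were 8 in MyD88-KO (6.67%), 8 in cells labelled TRIF-KO (4.38%), 0 in double-KO (0.173%) and 10 in WT (8.19%). At 16 h they were 8 in MyD88-KO (7.23%), 5 in cells labelled TRIF-KO (6.02%), 0 in double-KO (0.456%) and 3 in WT (4.93%). A single array stands behind each of these counts, so none has a replicate check. The slopes over time, fitted below, differed from WT for 0 members in MyD88-KO (237 of 21959 genes passed) and 0 in cells labelled TRIF-KO (0 genes). The WT array of 16 h lay on another slide than the other WT arrays. Arrays labelled TRIF-KO changed slide from 8 h on, and MyD88-KO arrays changed slide and scan day from 4 h on. Time and slide cannot be told apart there.

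Ccl2 (MCP-1) and Ccl7 (MCP-3), the main Ccr2 ligands, followed each other closely, with a Pearson correlation of 0.974 over the 20 arrays as a description. The Ccl2 probe lies at chr11:81850650-81850709 and the Ccl7 probe at chr11:81860656-81860715 (mm9, plus strand). With LPS over untreated, Ccl2 gave log2 ratios of 1.83, 3.31, 3.46, 4.11 and 3.40 at 1, 2, 4, 8 and 16 h in MyD88-KO. Cells labelled TRIF-KO gave 2.13, 3.25, 3.03, 2.96 and 2.17. Double-KO cells gave 0.13, 0.09, 0.30, 0.15 and -0.53, and WT gave 2.19, 4.01, 3.69, 3.42 and 1.41. Every array but those of double-KO was therefore at least 2-fold up, and the double-KO ratios did not overlap those of any other genotype. The Ccl2 peak was 17.2-fold at 8 h in MyD88-KO, 9.53-fold at 2 h in cells labelled TRIF-KO and 16.1-fold at 2 h in WT. The mean response of Ccl2 was 3.22 ± 0.23 (SE, adjusted p = 3.1e-06) in MyD88-KO, 2.71 ± 0.23 (9e-06) in cells labelled TRIF-KO, 0.03 ± 0.23 (1) in double-KO and 2.94 ± 0.23 (5.5e-06) in WT.

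Ccl7 gave 1.84, 3.83, 3.08, 4.60 and 3.28 in MyD88-KO over the same times. The ratios were 1.78, 3.48, 2.57, 3.75 and 2.33 in cells labelled TRIF-KO, 0, 0.11, -0.01, 0.01 and -0.13 in double-KO, and 2.20, 4.25, 4.65, 4.08 and 1.19 in WT. In double-KO its probe was not well above background in either channel at 4, 8 and 16 h. Both genes were lowest at 16 h in WT, at 2.67-fold for Ccl2 and 2.28-fold for Ccl7, where MyD88-KO cells still stood at 10.5-fold and 9.72-fold. The mean response of Ccl7 was 3.33 ± 0.31 (adjusted p = 3.1e-05) in MyD88-KO, 2.78 ± 0.31 (8.5e-05) in cells labelled TRIF-KO, 0 ± 0.31 (1) in double-KO and 3.27 ± 0.31 (2e-05) in WT.

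Ccl8 (MCP-2) and Ccl12 (MCP-5), the other monocyte attractants, departed from this pattern. Ccl8, whose probe lies at chr11:81930108-81930167, lay within 0.30 of no change at 1 and 2 h in every genotype and was high from 4 h in MyD88-KO and, at 4 and 8 h, in WT. Its log2 ratios were -0.21, 0.26, 3.85, 5.47 and 5.49 in MyD88-KO. Cells labelled TRIF-KO gave -0.06, 0.16, 0.59, 0.49 and -2.14. The ratios were 0.04, 0.03, -0.05, 0.10 and -0.08 in double-KO and -0.30, -0.16, 2.48, 2.58 and 0.69 in WT. At 16 h the MyD88-KO ratio was 45.0-fold and that of cells labelled TRIF-KO 0.227-fold, so the pair stood 198-fold apart. The mean response of 2.97 ± 0.62 in MyD88-KO passed (adjusted p = 0.0032), while -0.19 ± 0.62 in cells labelled TRIF-KO (0.85), 0.01 ± 0.62 in double-KO (1) and 1.06 ± 0.62 in WT (0.20) did not. With the scan day as a block Ccl8 passed at 1.98 ± 0.62 (0.034) in cells labelled TRIF-KO and at 3.23 ± 0.62 (0.0029) in WT.

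Ccl12, with its probe at chr11:81916764-81916823, was up at 1 h already in all genotypes but double-KO. It gave 1.22, 3.87, 5.79, 6.75 and 4.88 in MyD88-KO, a peak of 107-fold at 8 h. The ratios were 1.11, 2.38, 3.18, 1.26 and -2.0 in cells labelled TRIF-KO, 0.04, 0.18, -0.15, -0.03 and -0.26 in double-KO, and 1.37, 2.76, 4.52, 1.37 and -1.18 in WT. Up to 2 h MyD88-KO and WT were within 1.11 of each other, while at 8 and 16 h MyD88-KO stood 5.38 and 6.06 above WT. The mean response was 4.50 ± 0.63 (adjusted p = 0.00044) in MyD88-KO and 1.77 ± 0.63 (0.040) in WT, and 1.19 ± 0.63 (0.17) in cells labelled TRIF-KO did not pass. Without any one of the WT arrays of 1, 2, 4 or 8 h the WT response of Ccl12 lay between 1.35 and 2.06 and no longer passed (adjusted p = 0.059 to 0.19), nor did it without the MyD88-KO array of 4 h (0.05). With the scan day as a block Ccl12 passed in cells labelled TRIF-KO, at 3.1 ± 0.74 (0.011), also against double-KO, at 5.05 ± 1.31 (0.048).

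The levels behind these ratios show that both channels moved. With LPS, Ccl12 read 10.5, 12.9, 14.6, 16.8 and 13.8 at 1, 2, 4, 8 and 16 h in MyD88-KO, and untreated cells of that genotype read 9.29, 9.02, 8.82, 10.0 and 8.90. WT read 11.6, 12.9, 14.3, 13.8 and 11.6 with LPS and 10.3, 10.2, 9.80, 12.4 and 12.8 without it, so untreated WT was higher than LPS-treated WT at 16 h. Cells labelled TRIF-KO showed the same crossing, at 10.9 with LPS and 12.9 without it at 16 h. Ccl8 in MyD88-KO read 16.2 at 8 h and 16.1 at 16 h with LPS, against 10.7 and 10.6 without. At 16 h the cells labelled TRIF-KO read 9.20 with LPS and 11.3 without, and WT 12.1 with LPS and 11.4 without. In WT and in cells labelled TRIF-KO the untreated level of both genes was thus higher at 16 h than at 1 h.

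**Figure D2:**
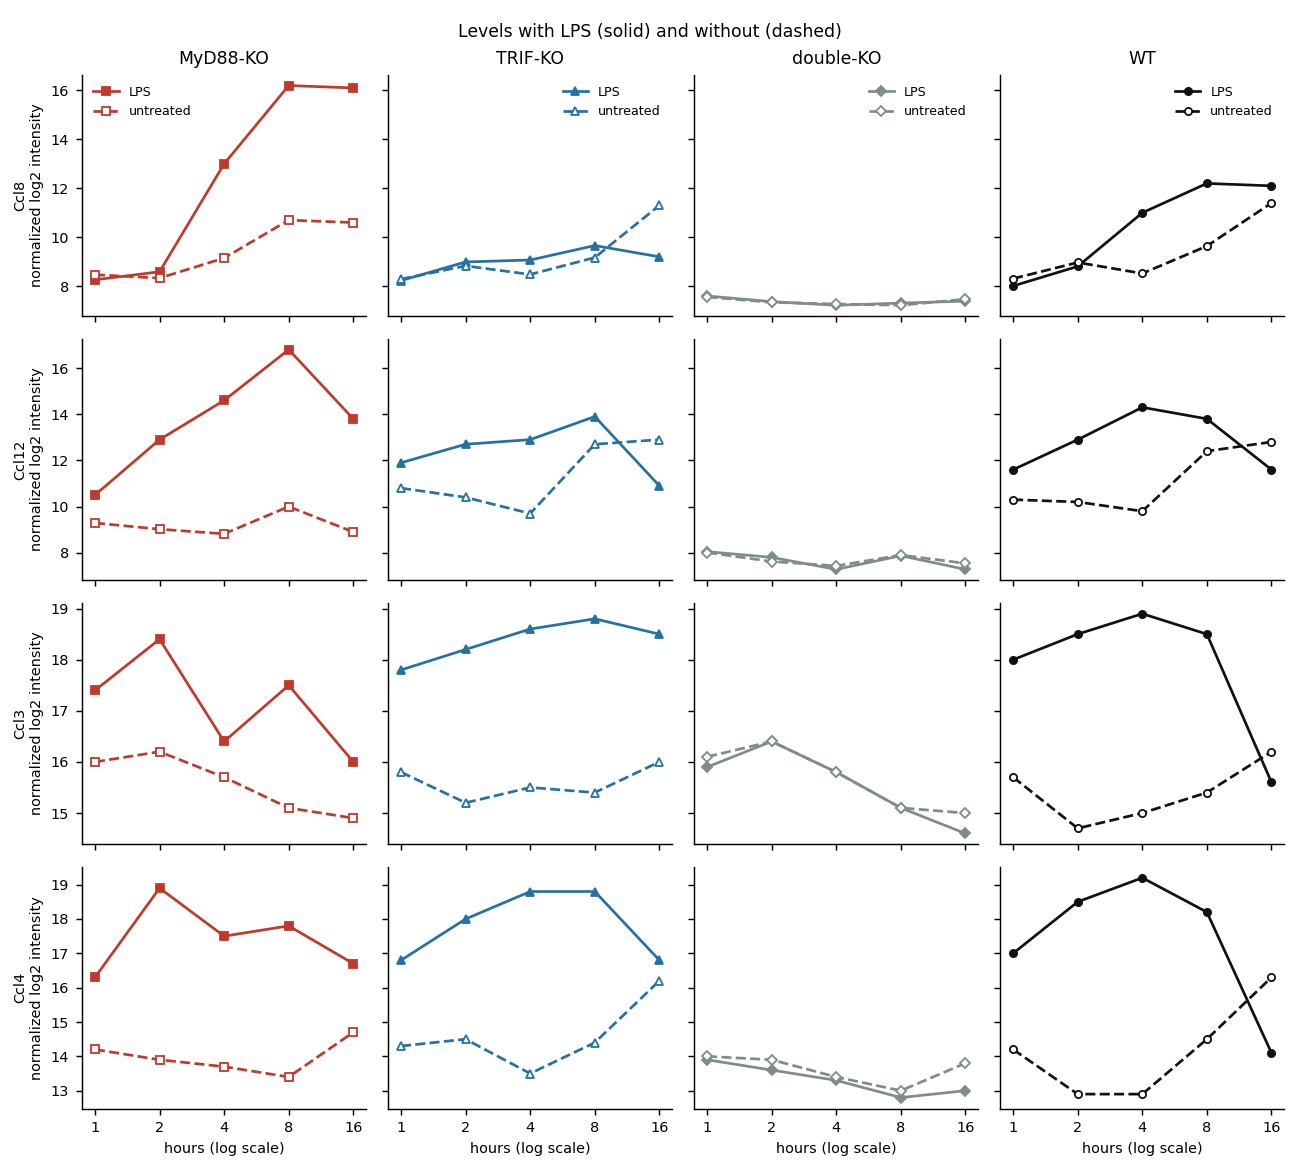
Normalized log2 intensity (vertical axis) of Ccl8, Ccl12, Ccl3 and Ccl4 with LPS (solid) and without it (dashed) against hours on a log axis, 1 column per genotype and 1 array per point. Solid and dashed lines cross at 16 h for Ccl12, Ccl3 and Ccl4 in WT and for Ccl8 and Ccl12 in cells labelled TRIF-KO, and stay apart in MyD88-KO from 4 h on.

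Ccl3 (MIP-1 alpha) and Ccl4 (MIP-1 beta), which draw macrophages and T cells, were up at 1 h in all genotypes but double-KO. In WT both were still up at 8 h and below the untreated level on the single 16 h array. The Ccl3 probe lies at chr11:83461358-83461417 on the minus strand and the Ccl4 probe at chr11:83478052-83478111 on the plus strand. Ccl3 gave log2 ratios of 1.48, 2.21, 0.65, 2.31 and 1.03 in MyD88-KO. The values were 1.97, 2.99, 3.10, 3.40 and 2.48 in cells labelled TRIF-KO, -0.23, -0.03, -0.06, 0.03 and -0.39 in double-KO, and 2.22, 3.84, 3.87, 3.05 and -0.58 in WT. At all 5 times the MyD88-KO ratio was below that of cells labelled TRIF-KO, with differences between -2.46 and -0.48. The mean response of Ccl3 was 1.54 ± 0.37 (adjusted p = 0.0064) in MyD88-KO, 2.79 ± 0.37 (0.00023) in cells labelled TRIF-KO, -0.14 ± 0.37 (1) in double-KO and 2.48 ± 0.37 (0.00032) in WT.

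Ccl4 gave 2.07, 5.02, 3.80, 4.40 and 1.96 in MyD88-KO, with a peak of 32.5-fold at 2 h. The ratios were 2.53, 3.56, 5.34, 4.41 and 0.58 in cells labelled TRIF-KO, -0.17, -0.25, -0.14, -0.20 and -0.74 in double-KO, and 2.77, 5.65, 6.34, 3.67 and -2.17 in WT. The WT ratio was 81.1-fold at 4 h, where the LPS spot was saturated, and 0.222-fold at 16 h, when MyD88-KO was still 3.89-fold up. With LPS the WT level was 19.2 at 4 h and 14.1 at 16 h, against 12.9 and 16.3 without it. The mean response was 3.45 ± 0.59 (adjusted p = 0.0014) in MyD88-KO, 3.29 ± 0.59 (0.0014) in cells labelled TRIF-KO, -0.30 ± 0.59 (1) in double-KO and 3.25 ± 0.59 (0.0012) in WT.

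Ccl5 (RANTES), which draws T cells, was flat at 1 h in all 4 genotypes and later up in all but double-KO. Its probe lies at chr11:83339296-83339355 on the minus strand. It gave -0.05, 2.56, 2.95, 2.88 and 4.10 in MyD88-KO, -0.24, 0.93, 2.75, 2.70 and 2.30 in cells labelled TRIF-KO, -0.09, -0.02, -0.15, -0.17 and -0.31 in double-KO, and 0.16, 3.09, 3.30, 3.35 and 2.88 in WT. At 2 h it stood at 5.88-fold in MyD88-KO and 1.90-fold in cells labelled TRIF-KO, against 8.51-fold in WT. The mean response was 2.49 ± 0.34 (adjusted p = 0.00037) in MyD88-KO, 1.69 ± 0.34 (0.0025) in cells labelled TRIF-KO, -0.15 ± 0.34 (1) in double-KO and 2.55 ± 0.34 (0.00016) in WT.

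Ccl9 (MIP-1 gamma), a mouse CCR1 ligand, was raised at most 4.73-fold. Its probe lies at chr11:83388223-83388282 on the minus strand. It peaked at 3.32-fold at 8 h in MyD88-KO, 3.76-fold at 4 h in cells labelled TRIF-KO and 4.73-fold at 4 h in WT, and its ratio lay between 0.02 and 0.17 in double-KO. The mean response of Ccl9 was 1.08 ± 0.23 (adjusted p = 0.0035) in MyD88-KO, 0.95 ± 0.23 (0.0072) in cells labelled TRIF-KO, 0.10 ± 0.23 (1) in double-KO and 1.05 ± 0.23 (0.0034) in WT. Its untreated level averaged 16.4 ± 0.26 (SD, n = 5) in MyD88-KO, 16.5 ± 0.35 in cells labelled TRIF-KO, 16.4 ± 0.23 in double-KO and 16.4 ± 0.42 in WT.

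Ccl17 (TARC) and Ccl22 (MDC) share the receptor CCR4 and lie together on chromosome 8, but they did not move alike. Ccl17, probed at chr8:97335770-97335829, gave 0.29, 0.73, 0.34, 0.28 and 0.16 in MyD88-KO. The values were 0.41, 0.76, 1.59, 2.61 and 1.12 in cells labelled TRIF-KO, 0.01, 0.04, 0.07, 0.08 and -0.13 in double-KO, and 0.57, 1.69, 1.78, 0.86 and -0.01 in WT. Its peak was 1.66-fold at 2 h in MyD88-KO, 6.12-fold at 8 h in cells labelled TRIF-KO and 3.43-fold at 4 h in WT. The mean response of 0.36 ± 0.23 in MyD88-KO did not pass (adjusted p = 0.24), while 1.30 ± 0.23 in cells labelled TRIF-KO (0.0012) and 0.98 ± 0.23 in WT (0.0050) did. Untreated MyD88-KO cells were not well above background for Ccl17 on any array, and LPS-treated ones were on 3 of 5. The mean difference of 1.28-fold is an estimate and not a lower limit, since LPS-treated arrays near background are in the mean.

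Ccl22, probed at chr8:97274709-97274768, gave -0.01, 0.22, 1.79, 2.75 and 1.60 in MyD88-KO, a peak of 6.71-fold at 8 h. The ratios were -0.04, 0.13, 0.23, 1.94 and 1.00 in cells labelled TRIF-KO, 0.01, 0.02, 0.08, -0.14 and -0.04 in double-KO, and 0.28, 0.45, 1.71, 1.2 and 0.16 in WT. The mean response was 1.27 ± 0.26 (adjusted p = 0.0030) in MyD88-KO, 0.65 ± 0.26 (0.074) in cells labelled TRIF-KO and 0.76 ± 0.26 (0.035) in WT. The WT value of Ccl22 did not pass without the WT array of 1, 2, 4 or 8 h, at 0.54 to 0.87 (adjusted p = 0.056 to 0.19). Ccl22 was well above background without LPS on 2 of 5 arrays in MyD88-KO and on 0 in the other 3 genotypes, and with LPS on 3 arrays in MyD88-KO, 3 in cells labelled TRIF-KO, 0 in double-KO and 2 in WT. With untreated values raised to the lowest signal measured above background, the mean difference was 1.40-fold in cells labelled TRIF-KO and 1.46-fold in WT. These are estimates and not lower limits of the response, since LPS-treated arrays near background are in the means. Neither CCR4 ligand was well above background in double-KO, with or without LPS.

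Which chemokines still respond with a single adapter left was asked by setting each single knockout against the double knockout. In MyD88-KO, 7 of 10 members responded more than in double-KO (5.72% of all genes did), and in cells labelled TRIF-KO 6 of 10 did (3.56%). Ccl2, Ccl7, Ccl4 and Ccl5 passed in both comparisons, which share the double-KO arrays. Ccl2 differed by 3.19 ± 0.33 (adjusted p = 0.00028) in MyD88-KO and by 2.68 ± 0.33 (7e-04) in cells labelled TRIF-KO, and Ccl7 by 3.33 ± 0.44 (0.0020) and 2.79 ± 0.44 (0.0048) in the same order. For Ccl4 the values were 3.75 ± 0.84 (0.023) in MyD88-KO and 3.59 ± 0.84 (0.025) in cells labelled TRIF-KO, and for Ccl5 2.63 ± 0.48 (0.010) and 1.84 ± 0.48 (0.037). Ccl12, at 4.54 ± 0.89 (0.014), Ccl8, at 2.96 ± 0.88 (0.048), and Ccl22, at 1.28 ± 0.37 (0.044), passed in MyD88-KO, with 1.23 ± 0.89 (0.44), -0.20 ± 0.88 (0.92) and 0.67 ± 0.37 (0.29) in cells labelled TRIF-KO. Ccl3, at 2.93 ± 0.52 (0.0082), and Ccl17, at 1.28 ± 0.32 (0.033), passed in cells labelled TRIF-KO, with 1.67 ± 0.52 (0.055) and 0.34 ± 0.32 (0.50) in MyD88-KO. Ccl9 passed in neither, at 0.97 ± 0.32 (0.066) and 0.85 ± 0.32 (0.12). The calls of Ccl22 and Ccl17 set a signal against double-KO arrays on which neither probe was well above background. Both probes were kept by the filter through the other genotypes only. By group, 4 of 4 monocyte attractants passed in MyD88-KO and 2 of 4 in cells labelled TRIF-KO, with medians of 3.26 and 1.96. The medians of all genes were -0.02 and -0.04.

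**Figure D3:**
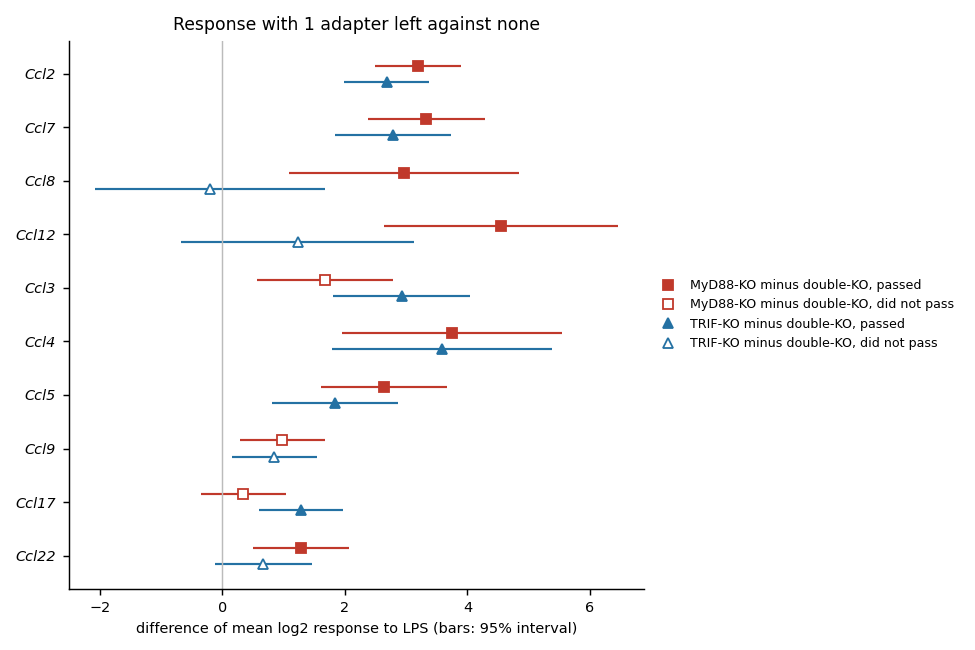
Difference of the mean log2 response to LPS from double-KO (horizontal axis) for each chemokine, in MyD88-KO (squares, above) and in cells labelled TRIF-KO (triangles, below), with 95% intervals. Filled symbols passed an adjusted p of 0.05. Ccl8 and Ccl12 passed in MyD88-KO at 2.96 and 4.54, and Ccl3 and Ccl17 passed in cells labelled TRIF-KO at 2.93 and 1.28. The Ccl17 and Ccl22 probes were not well above background in double-KO.

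Against WT, double-KO cells responded less in 5 of 10 members (5.93% of all genes). Ccl2 fell by 2.92 on the log2 scale (SE 0.33, adjusted p = 0.00046), Ccl7 by 3.28 (0.44, 0.0014), Ccl3 by 2.62 (0.52, 0.0093), Ccl4 by 3.55 (0.84, 0.019) and Ccl5 by 2.70 (0.48, 0.0058). At the same time points, the ratios of double-KO did not deviate together with those of any other genotype (correlations -0.20 to 0.13). All these comparisons with double-KO nevertheless had the time point as a block. Without it 2 members passed in MyD88-KO against double-KO (Ccl2 and Ccl7), 2 in cells labelled TRIF-KO against double-KO (Ccl2 and Ccl3) and 3 in double-KO against WT (Ccl2, Ccl3 and Ccl7). The counts also hung on single arrays: leaving out one array gave 3 to 9 in MyD88-KO against double-KO, 3 to 6 in cells labelled TRIF-KO against double-KO and 4 to 7 in double-KO against WT. The counts of all genes moved as well. In the same order they were 204 to 4299 (0.929% to 19.6%), 237 to 3223 (1.08% to 14.7%) and 746 to 4111 (3.4% to 18.7%). The changes of single members below are to be read against these ranges. Without the MyD88-KO array of 4, 8 or 16 h, Ccl8 was at 2.92 (adjusted p = 0.092), 2.53 (0.14) and 2.13 (0.15), and it also missed the threshold without any one WT array (0.053 to 0.061), the 1, 2, 4 or 8 h array labelled TRIF-KO (0.055 to 0.062) or the double-KO array of 4, 8 or 16 h (0.083 to 0.15). Ccl22 missed it without 13 of 20 arrays in turn, at 0.99 to 1.28 (adjusted p = 0.051 to 0.15), and Ccl12 without the MyD88-KO array of 8 or 16 h (0.054 and 0.052) or the double-KO array of 4 or 8 h (0.058 and 0.056). The same held for Ccl4, at 3.33 to 3.65 (0.071 to 0.084) without the MyD88-KO array of 8 or 16 h or the double-KO array of 4 or 8 h. In cells labelled TRIF-KO, Ccl4, Ccl5 and Ccl17 missed it without the array of 4, 8 or 16 h of those cells, or of 4 or 8 h of double-KO (adjusted p = 0.065 to 0.13), and Ccl5 and Ccl17 also without the double-KO array of 2 or 16 h (0.052 to 0.093). For double-KO against WT the Ccl4 value missed it without the WT array of 2 or 4 h or the double-KO array of 4 or 8 h (0.056 to 0.066). Ccl3 in MyD88-KO, in turn, passed without the WT array of 4 or 16 h (0.045 and 0.010) or the double-KO array of 1 h (1.75, 0.05), and Ccl9 in MyD88-KO without the WT array of 16 h (0.031) or the double-KO array of 1 or 16 h (0.03 and 0.043). For double-KO against WT, Ccl9 passed without the WT array of 16 h or the double-KO array of 1 or 16 h (0.0093 to 0.033), and Ccl17 without the WT array of 16 h, the 8 h array labelled TRIF-KO or the double-KO array of 1 h (0.029 to 0.047). Ccl2 and Ccl7 passed without any one array in all 3 comparisons.

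No member differed between a single knockout and WT, or between the single knockouts, after adjustment, and neither did any other of the 21961 genes (0%). At an unadjusted p under 0.05 there were 3184 genes with 2 members for MyD88-KO against WT, 1649 with 0 members for cells labelled TRIF-KO against WT, and 4092 with 4 members for MyD88-KO against cells labelled TRIF-KO. Those 4 members were Ccl12, at 3.31 ± 0.89 (95% interval 1.41 to 5.22, adjusted p = 0.12), Ccl8, at 3.16 ± 0.88 (1.29 to 5.04, 0.12), Ccl17, at -0.94 ± 0.32 (-1.63 to -0.25, 0.15), and Ccl3, at -1.25 ± 0.52 (-2.37 to -0.14, 0.22). The time points pull these means apart: at 1 h the Ccl8 and Ccl12 ratios of the single knockouts differed by -0.15 and 0.11, and at 16 h by 7.63 and 6.87. Without the MyD88-KO array of 1 h both passed, Ccl8 at 3.86 (0.027) and Ccl12 at 4.10 (0.027), and Ccl12 passed against WT as well, at 3.52 (0.047). Without that array 1337 of all genes (6.09%) passed between the single knockouts and 410 (1.87%) for MyD88-KO against WT. For Ccl4 the difference of the single knockouts was 0.16 ± 0.84, with an interval from -1.63 to 1.96, and for Ccl9 it was 0.13 ± 0.32, from -0.57 to 0.82.

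A straight line over the log2 of time, which misses a peak in the middle, was fitted for each genotype. The ratio of Ccl8 rose by 1.66 ± 0.30 per doubling of time in MyD88-KO (adjusted p = 0.0033) and that of Ccl5 by 0.86 ± 0.24 (0.036), which made 2 of 10 members (5.52% of all genes). No member passed in cells labelled TRIF-KO (3.31% of genes rose), in double-KO (0%) or in WT (2.92%). Ccl8 was at -0.38 ± 0.30 (0.54) in cells labelled TRIF-KO, and its slope differed between the single knockouts by 2.04 ± 0.42 (adjusted p = 0.017), the only member of 10 to do so (2.49% of genes). That value was 1.45 (0.18) without the 16 h array labelled TRIF-KO and 2.11 (0.056) without the MyD88-KO array of 1 h, and it did not pass with the slide or the scan day in the model. The Ccl5 slope was 0.46 (0.47) without the MyD88-KO array of 1 h and also missed the threshold without that of 8 or 16 h (0.055 and 0.13) or any one double-KO array (0.051 to 0.052). For Ccl12 the slopes of the single knockouts differed by 1.75 ± 0.67 (0.18). In WT the slopes of Ccl4, at -1.19 ± 0.60 (0.34), and Ccl3, at -0.64 ± 0.30 (0.29), pointed down. Without the WT array of 1 h both passed, at -2.61 (0.041) for Ccl4 and -1.41 (0.024) for Ccl3.

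The chemokines also differed between genotypes before any LPS. Against WT, untreated double-KO cells were lower in 5 of 10 members (10.6% of all genes were lower) and untreated MyD88-KO cells in 3 (3.66%), while cells labelled TRIF-KO passed in 0, also at an unadjusted p under 0.05 (0.437% of genes passed in either direction). Untreated Ccl2 averaged 12.7 ± 1.24 (SD, n = 5) in MyD88-KO, 14 ± 1.31 in cells labelled TRIF-KO, 10.2 ± 1.36 in double-KO and 14.1 ± 0.65 in WT. The double-KO level was 15.1-fold below WT (log2 -3.91 ± 0.42, adjusted p = 1.2e-05), and no double-KO array overlapped WT, with 8.90 to 12.1 against 13.0 to 14.8. MyD88-KO differed from WT by -1.77 ± 0.46 (0.027), with the arrays at 13.8, 14.2, 11.6, 11.8 and 11.9 for 1 to 16 h. The drop after 2 h coincided with the change from the third to the fourth slide and from the first to the second scan day.

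Ccl7 behaved likewise, at 9.04 ± 1.5 in MyD88-KO, 10.7 ± 1.43 in cells labelled TRIF-KO, 7.30 ± 0.69 in double-KO and 10.8 ± 0.81 in WT. It differed from WT by -2.18 ± 0.54 (adjusted p = 0.022) in MyD88-KO and by -3.53 ± 0.50 (0.00014) in double-KO. Ccl12 averaged 9.21 ± 0.48 in MyD88-KO, 11.3 ± 1.41 in cells labelled TRIF-KO, 7.70 ± 0.25 in double-KO and 11.1 ± 1.39 in WT, with differences from WT of -1.98 ± 0.47 (0.018) in MyD88-KO and -3.38 ± 0.44 (6.7e-05) in double-KO. Ccl8 was lower in double-KO by 3.97-fold (-1.99 ± 0.38, 0.0017), and MyD88-KO was at 0.31 ± 0.41 (0.65). Outside the monocyte attractants the one lower member was Ccl5, by 5.01-fold in double-KO (-2.32 ± 0.34, 2e-04), at 12.9 ± 0.67 against 15.2 ± 0.77 in WT. Ccl3, at 0.26 ± 0.31 (0.57), Ccl4, at -0.53 ± 0.39 (0.34), and Ccl9, at 0.01 ± 0.11 (0.97), were not called in double-KO.

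For untreated Ccl2, Ccl7 and Ccl12, cells labelled TRIF-KO differed from WT by -0.14 ± 0.42, -0.18 ± 0.50 and 0.21 ± 0.44, none past the threshold (adjusted p = 0.86 to 0.91). The 3 calls in MyD88-KO were lost without the time block (0 of 10) and without the MyD88-KO array of 8 or 16 h (0 of 10 with either left out, adjusted p = 0.062 to 0.11) or the WT array of 8 h (0 of 10, 0.064 to 0.087), and Ccl2 also missed the threshold without the WT array of 4 h (0.068). The 5 calls in double-KO stayed at 5 with any one array left out. Double-KO and WT shared no slide and no scan day, which leaving out an array cannot address. With the slide as a fixed block Ccl2, Ccl7, Ccl8 and Ccl5 missed the threshold in untreated double-KO against WT (adjusted p = 0.072 to 0.48). The part of the scan day in untreated levels was not tested. Untreated Ccl8 rose with hours in medium by 0.64 ± 0.17 per doubling (adjusted p = 0.017) in cells labelled TRIF-KO and by 0.68 ± 0.17 (0.022) in WT, and Ccl5 by 0.73 ± 0.15 (0.0050) in cells labelled TRIF-KO, 2 of 10 members (9.36% of genes) and 1 of 10 (4.38%). Without the 16 h array the Ccl8 slopes were 0.23 (0.51) and 0.36 (0.44), and without the 1 h array of WT the WT slope was 0.83 (0.060). In MyD88-KO the untreated Ccl8 slope was similar, at 0.61 ± 0.18 (0.061), and did not pass. It passed without the 16 h array labelled TRIF-KO (0.027) or the 16 h array of WT (0.041).

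**Figure D4:**
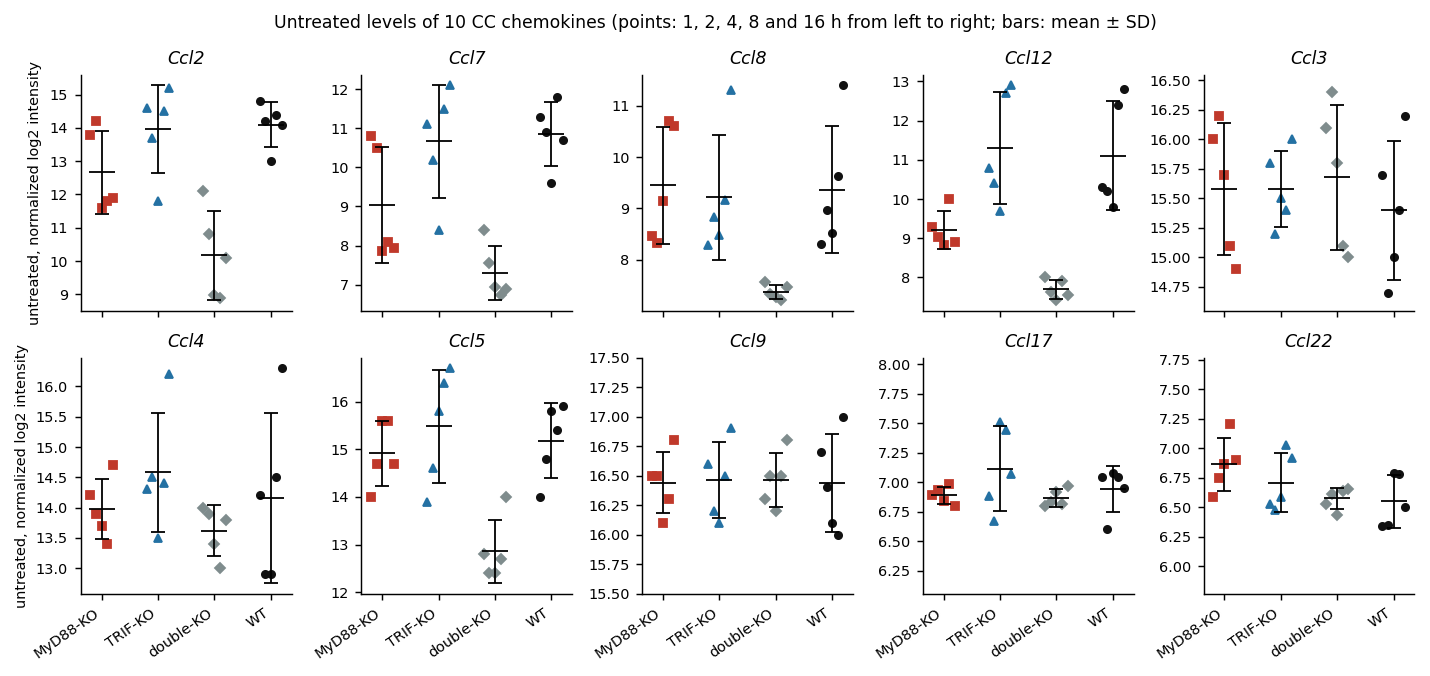
Normalized log2 intensity of untreated cells (vertical axis, a scale of its own in each panel) by genotype, with 5 arrays each and the mean ± SD, the 2 h point of MyD88-KO coming from Cy5 and all others from Cy3. Double-KO sits at 10.2 for Ccl2 and 7.70 for Ccl12, against 14.1 and 11.1 in WT, while the 4 genotypes lie together for Ccl9.

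Other genes of the system were read from fixed lists. Of the other CC ligands 6 of 9 were measured, and Ccl24 (eotaxin-2) was the one with a large response, 2.25 ± 0.38 (adjusted p = 0.0013) in MyD88-KO and 2.00 ± 0.38 (0.0016) in WT, with 1 higher and 2 lower in MyD88-KO, 1 and 1 in cells labelled TRIF-KO, and 2 and 2 in WT. Of all genes, 18.7% fell with LPS in MyD88-KO, 16.2% in cells labelled TRIF-KO, 0.00455% in double-KO and 19.7% in WT, beside the shares that rose given above. Ccrl2, a receptor that binds chemerin, rose by 3.51 ± 0.26 (3.8e-06) in MyD88-KO, 2.80 ± 0.26 (2.1e-05) in cells labelled TRIF-KO and 2.98 ± 0.26 (1.1e-05) in WT. Ccr2, the receptor for Ccl2, Ccl7 and Ccl12, fell by 2.59 on the log2 scale (SE 0.48, adjusted p = 0.0016) in cells labelled TRIF-KO and by 2.15 (0.48, 0.0040) in WT, and its value of -0.90 ± 0.48 in MyD88-KO did not pass (0.16).

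Of the 10 genes of NF-kB and its feedback, 9 rose in MyD88-KO, 10 in cells labelled TRIF-KO, 0 in double-KO and 10 in WT, with medians of 1.54, 1.43, 0.01 and 1.62 in that order. Tnfaip3, a feedback inhibitor, rose by 3.93 ± 0.32 (9.7e-06) in MyD88-KO, 4.08 ± 0.32 (4.8e-06) in cells labelled TRIF-KO and 4.63 ± 0.32 (1.9e-06) in WT. Of the 12 genes of the interferon axis, 9 rose in MyD88-KO, 2 rose and 1 fell in cells labelled TRIF-KO, 0 moved in double-KO and 5 rose in WT, with medians of 1.67, 0.28, -0.08 and 0.68. Cxcl10, an interferon-inducible chemokine, rose by 5.16 ± 0.66 (0.00026) in MyD88-KO and 2.81 ± 0.66 (0.0053) in WT, and Ifnb1, which encodes interferon beta, by 4.88 ± 0.86 (0.0015) in MyD88-KO. Against double-KO, 5 of the 12 responded more in MyD88-KO and 0 in cells labelled TRIF-KO. Before LPS 7 of the 12 were lower in MyD88-KO than in WT and 7 were lower in double-KO, among them Irf7, at -2.59 ± 0.23 in double-KO (2e-06). Of the 7 measured genes of alternative activation, 2 rose and 3 fell in MyD88-KO, 0 rose and 2 fell in cells labelled TRIF-KO, and 1 rose and 2 fell in WT. These few genes are to be read against the shares of all genes above. Mrc1, the mannose receptor, fell by 1.5 on the log2 scale in MyD88-KO (SE 0.44, adjusted p = 0.016).

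The members split by their pattern over the 20 arrays, described by Pearson's r of the log2 ratios among 21728 genes, with time courses and slides shared. Ccl8 was nearest to Ccl12 among the members (r = 0.797) and farthest from Ccl17 (r = -0.0986). Ccl3 was nearest to Ccl4 (0.877), Ccl4 to Ccl9 (0.885) and Ccl17 to Ccl3 (0.844). Outside the members the genes most like Ccl2 were Ccrl2 (0.969), Cflar (0.967) and Gadd45b (0.965), and Gadd45b (0.947) and Mapk6 (0.944) were among the 3 most like Ccl7. Il18bp (0.990) and Phf11d (0.987) were most like Ccl8, Zc3h12a (0.934) and Cxcl2 (0.918) most like Ccl3, and Gm6377 (0.970) and Hcar2 (0.946) most like Ccl4. For Ccl5 they were Htra1 (0.968) and Il1rn (0.962), for Ccl9 Lyn (0.962) and Fam13b (0.956), for Ccl17 Adm (0.943) and Dlst (0.912), and for Ccl22 Ppa1 and Macc1 (0.954 each). The 3 nearest Ccl12 (0.964 to 0.969) carry only clone or probe names in the files, and likeness of ratios says nothing of shared control.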

How the data were processed

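Each array compared LPS-treated with untreated macrophages of 1 genotype and time. The authors deposited scanner files with intensity values per spot in Cy5 and Cy3, and per the file headers the software was Agilent Feature Extraction, version 10.10.1.1, with probe positions in mm9. They also deposited a table of log10 ratios, which equalled the scanner's own log ratios. Here the intensities were background-corrected (limma 3.58.1 in R 4.3.3, normexp, offset 50) and loess-normalized within arrays, leaving out control and outlier spots, and the log2 ratio was turned on the 1 array with LPS in Cy3. Probes well above background in a channel on at least 3 arrays were kept (28304 of 39429), and the brightest stood for its gene, which gave 21963 genes, 21961 of them tested. Levels are log2 intensities after normalization between arrays (Aquantile), and untreated levels were tested on the 19 arrays with untreated RNA in Cy3.

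Means over time were fitted by genotype with the time point as a block, slopes over log2 time without it, and p-values were Benjamini-Hochberg adjusted over all genes with a threshold of 0.05. The replicate number is the time point, per the labels. Same-time arrays deviated together in ratio for MyD88-KO and TRIF-KO (correlations 0.22 to 0.57), MyD88-KO and WT (0.28 to 0.70) and TRIF-KO and WT (0.74 to 0.83), but not for double-KO and any other genotype (-0.20 to 0.13). Untreated levels correlated at 0.13 to 0.81 for all pairs. All 10 members are named, and for each the 3 genes of most similar ratio over the arrays were sought. The members and lists were chosen with earlier results of these data known. Of the probes 27234 were named by accession, 3576 by symbol and 565 by synonym, and 8054 kept the name in the files. Alternatives changed the background correction, normalization, filter, probe choice, dye, slide, scan day, time block and samples. The fits were tested on simulated data.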

Additional observations from a re-analysis of the deposited data

Results flagged for a closer look

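Of 80 sets of 5 arrays (the ratio and the untreated level of each member in each genotype), 7 held an array far from the other 4 by Dixon's test, and chance alone marks about 1 in 20. In cells labelled TRIF-KO the 16 h array had the Ccl8 ratio of -2.14 (others -0.06 to 0.59) and an untreated Ccl8 level of 11.3 (others 8.29 to 9.17). The 16 h double-KO array had the ratios of Ccl2, -0.53 (0.09 to 0.30), and Ccl4, -0.74 (-0.25 to -0.14), and an untreated Ccl5 level of 14 (12.38 to 12.77). The Ccl5 ratio of WT at 1 h was 0.16 (2.88 to 3.35), and untreated Ccl17 of WT at 2 h was 6.60 (6.95 to 7.08). The 5 arrays of a set are different times, so an array that stands apart may be a time that differs.

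The response differed between genotypes by a test of the difference itself (limma, adjusted over all genes) in 18 cases. MyD88-KO exceeded double-KO in Ccl2 (3.19), Ccl7 (3.33), Ccl8 (2.96), Ccl12 (4.54), Ccl4 (3.75), Ccl5 (2.63) and Ccl22 (1.28). Cells labelled TRIF-KO exceeded double-KO in Ccl2 (2.68), Ccl7 (2.79), Ccl3 (2.93), Ccl4 (3.59), Ccl5 (1.84) and Ccl17 (1.28). Neither Ccl22 nor Ccl17 was well above background in double-KO. Double-KO was below WT in Ccl2 (-2.92), Ccl7 (-3.28), Ccl3 (-2.62), Ccl4 (-3.55) and Ccl5 (-2.70). The slope of Ccl8 over time differed between MyD88-KO and cells labelled TRIF-KO by 2.04 per doubling.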

How the results depend on the processing

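Without the time block, 2 members passed for MyD88-KO against double-KO, 2 for cells labelled TRIF-KO against double-KO, 3 for double-KO against WT and 0 for untreated MyD88-KO against WT, and the cause was not tested. With a term for the dye, 5, 2 and 3 members responded in MyD88-KO, cells labelled TRIF-KO and WT. Of all genes, 3.84% passed in either direction in MyD88-KO and 1.47% in cells labelled TRIF-KO with that term. With the slide as a random block, 3, 3 and 2 passed in the comparisons of MyD88-KO and of cells labelled TRIF-KO with double-KO and of double-KO with WT, 1 in the slope of MyD88-KO and 0 in that slope against cells labelled TRIF-KO. With the slide as a fixed block, 0 members responded in WT, 0 passed in the 3 comparisons with double-KO and in both of these slopes, 1 and 2 passed for untreated MyD88-KO and double-KO against WT, and the untreated slopes of cells labelled TRIF-KO and of WT had 0. With this block 0 of all genes passed in the WT response and in the 3 comparisons with double-KO. The same block turned the direction of Ccl12 (-0.49), Ccl3 (-0.26), Ccl4 (-1.39) and Ccl9 (-0.77) in WT, of Ccl3 (1.95) and Ccl4 (4.37) in double-KO against WT, and put Ccl9 at -1.50 in untreated double-KO against WT. The cause was not tested. With the scan day as a block, Ccl8 turned direction in cells labelled TRIF-KO and passed at 1.98 (adjusted p = 0.034), Ccl12 passed in those cells at 3.1 (0.011) and against double-KO at 5.05 (0.048), and Ccl8 passed in WT at 3.23 (0.0029). In that fit 3 members passed for cells labelled TRIF-KO against double-KO and 0 in both slopes. Scaling between arrays left 1 member in the slope of MyD88-KO, and processed Cy3 signals left 1 for untreated MyD88-KO against WT. A fit of only the 2 genotypes compared gave 0 for MyD88-KO against double-KO, 3 for cells labelled TRIF-KO against double-KO and 0 for double-KO against WT.

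Leaving out 1 array gave 9 members in MyD88-KO, 7 to 8 in cells labelled TRIF-KO and 7 to 9 in WT for the response, 3 to 9, 3 to 6 and 4 to 7 for the 3 comparisons with double-KO, 0 to 1 for MyD88-KO against WT and 0 to 2 against cells labelled TRIF-KO. For the slopes it gave 1 to 3 in MyD88-KO, 0 to 1 in cells labelled TRIF-KO, 0 to 2 in WT, and 0 to 1 for MyD88-KO against WT and against cells labelled TRIF-KO. For untreated cells it gave 0 to 3 for MyD88-KO and 5 for double-KO against WT, and for the untreated slopes 0 to 1 in MyD88-KO, 1 to 3 in cells labelled TRIF-KO, 0 to 1 in double-KO and 0 to 2 in WT. For the response the same omissions gave 16.6% to 38% of all genes in MyD88-KO and 22.1% to 37.8% in WT. In cells labelled TRIF-KO the range was 14.8% to 30.4%. The 3 comparisons with double-KO ranged over 0.929% to 19.6%, 1.08% to 14.7% and 3.4% to 18.7% of all genes. Untreated MyD88-KO and double-KO against WT ranged over 3.77% to 16.7% and 18.9% to 28.8%. Of all single-member values recomputed, 7022 kept their side of the threshold, 209 lost the call, 54 gained it and 8 turned direction. Among the 7022 were 355 that changed sign with neither value past the threshold. Over all genes, the settings other than array omissions gave 844 to 8400 in MyD88-KO, 323 to 7501 in cells labelled TRIF-KO, 0 to 2424 in double-KO and 0 to 8302 in WT for the response, and 0 to 5527, 0 to 2506 and 0 to 2825 for the comparisons with double-KO. Ccl17 and Ccl22, well above background on 12 and 8 of 20 arrays, are limited by signal.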
